A study of Caenorhabditis elegans with 3 samples.

Results

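Homeobox genes named ceh (C. elegans homeobox) were examined for peaks of UNC-55 chromatin immunoprecipitation followed by sequencing (ChIP-seq) in L2 larvae. The set comprised every protein-coding gene of Ensembl WBcel235 whose symbol is ceh followed by a number, apart from ceh-13 and ceh-20. It held 61 of the 19973 nuclear protein-coding genes. The rule used gene symbols and no measured value, but it was chosen with earlier results of these data known.

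The samples were 3 biological replicates of a single group: whole animals, males and females pooled, of strain NC1639. Per the labels this strain carries a construct on chromosome III that joins the ttr-39 promoter to UNC-55a and GFP, with dpy-20+ as the marker. The ttr-39 promoter is known to be active in D-type GABA motor neurons, so tagged UNC-55 is made from a chosen promoter and not from its own gene. The sample descriptions name eGFP-tagged UNC-55 as the target, while 1 note, on replicate 3, describes GFP-FLAG. A control alignment was shared by all replicates and was not analysed here. Whole animals were used, and the data do not show which cells made the tagged protein, so a peak cannot be assigned to a cell type. No group without the transgene was among the samples, so the values below are set against other genes in the same lists.

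Homeobox genes encode transcription factors with a DNA-binding homeodomain. In C. elegans, combinations of them give neuron classes their identity. The ceh genes span several classes. ONECUT proteins join a cut domain to the homeodomain and act broadly in the nervous system. Paired-like, LIM and POU members include selectors of particular neuron types, and NK2 and sine oculis members act largely in the pharynx and head. UNC-55 is a COUP-TF-type nuclear receptor that sets the synaptic pattern of ventral D motor neurons, alongside the homeobox factor UNC-30.

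The authors' optimal list, which holds the peaks that passed their irreproducible discovery rate (IDR) threshold, contained 5993 peaks. Promoter windows covered the 2000 bp before and the 500 bp after each annotated transcript start. An optimal summit lay in the promoter window of 10 ceh genes (16.4%), against 25.5% of all protein-coding genes. With gene bodies added, 11 ceh genes (18.03%) held a summit, against 27.2% of all genes. The 11 genes were ceh-5, ceh-18, ceh-21, ceh-38, ceh-39, ceh-48, ceh-58, ceh-88, ceh-92, ceh-93 and ceh-100. They held 16 optimal summits in all. These counts, like the share of all genes, were lower under a stricter rule on replicates. The rule adds a demand on the remaining replicates, so it does not single out the effect of the replicate left out. When only peaks covered to at least 50% by the strongest peaks of both remaining replicates were kept, 8, 9 and 10 summits were left without replicates 1, 2 and 3, and 7, 6 and 7 genes had one in the promoter window, against 18.8%, 19.8% and 20.4% of all genes.

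Sequence is shown for 8 of these peaks, the strongest with summits outside UTRs apart from those at ceh-5, to show the letters found at the summits. Each line gives 101 bp centred on the summit, in the WBcel235 (ce11) assembly of RefSeq, 5′ to 3′ on the strand of the named gene. Capitals mark any of the 5 hexamers most concentrated at the summits of the other optimal peaks on either strand, whose letters are given with their counts further on.
ceh-39 upstream, chrX:1856325-1856425, minus strand: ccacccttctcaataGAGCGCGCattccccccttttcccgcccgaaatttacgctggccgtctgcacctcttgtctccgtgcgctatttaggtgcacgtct
ceh-93 upstream, chrX:388855-388955, minus strand: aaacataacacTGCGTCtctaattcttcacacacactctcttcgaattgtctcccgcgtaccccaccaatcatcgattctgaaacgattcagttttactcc
ceh-58 upstream, chrII:10370967-10371067, minus strand: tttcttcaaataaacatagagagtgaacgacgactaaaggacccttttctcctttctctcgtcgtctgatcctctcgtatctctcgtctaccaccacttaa
ceh-18 intron, chrX:3849722-3849822, minus strand: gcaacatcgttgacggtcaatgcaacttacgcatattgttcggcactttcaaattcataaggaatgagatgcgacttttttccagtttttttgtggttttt
ceh-93 coding exon, chrX:385403-385503, minus strand: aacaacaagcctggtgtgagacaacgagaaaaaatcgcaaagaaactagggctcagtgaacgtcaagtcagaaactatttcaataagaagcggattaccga
ceh-100 upstream, chrII:12603829-12603929, minus strand: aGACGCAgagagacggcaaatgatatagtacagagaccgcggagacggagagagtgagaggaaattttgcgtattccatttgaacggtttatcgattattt
ceh-48 upstream, chrIV:6811068-6811168, plus strand: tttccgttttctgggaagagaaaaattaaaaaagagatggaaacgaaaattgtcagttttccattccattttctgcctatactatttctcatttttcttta
ceh-18 intron, chrX:3850887-3850987, minus strand: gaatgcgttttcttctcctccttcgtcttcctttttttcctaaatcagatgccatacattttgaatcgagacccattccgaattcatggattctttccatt

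Of the 6 ONECUT genes, 4 had an optimal summit in the promoter window (ceh-21, ceh-38, ceh-39 and ceh-48), where 25.5% of all genes had one. ONECUT proteins are known to act together on genes expressed throughout the nervous system. In the replicates' own lists of strongest peaks, 3, 4 and 3 of the 6 ONECUT genes had a summit in the window or body in replicates 1, 2 and 3, against 27.5%, 27.8% and 27.6% of all genes. Under the rule on remaining replicates, 2 of the 6 (ceh-21 and ceh-39) were left without replicate 1 or without replicate 2, and 3 without replicate 3. The shares of all genes were 18.8%, 19.8% and 20.4%. Without replicate 1 or 2, ceh-38 failed the 50% coverage rule, although it ranked 85, 86 and 174 in replicates 1, 2 and 3. Counting a summit only for its nearest start left 3, without ceh-21, against 17.8% of all genes. With so few genes in a class, these are counts and no test was made of the difference between classes.

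The strongest peak at a ceh gene was at ceh-38 (WBGene00000459), with a signal value of 477 as written by the authors' caller. It ranked 82 among the 5993 optimal peaks by signal. In the replicates it ranked 85, 86 and 174, with signals of 254, 156 and 67.2 in replicates 1, 2 and 3, on scales that differ between lists. The summit lay 39 bp downstream of a ceh-38 start, in the 5′ UTR, within a peak from 6951378 to 6951773 on chromosome II. Replicate summits fell within 2 bp of it. The same summit also lay in the promoter window of malt-1, which encodes a paracaspase homologue.

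A cluster of 3 ONECUT genes, ceh-41, ceh-21 and ceh-39, lies in tandem on X, and 2 of its members had peaks. At ceh-39 (WBGene00000460), which acts in the counting of X chromosomes during sex determination, the peak lay 203 bp upstream in intergenic sequence (X, 1856256 to 1856503). It had a signal of 215 and ranked 1046 in the optimal list, and 1544, 564 and 1107 in replicates 1, 2 and 3. The sequence at that summit was the richest in GC of the 16, at 57.4% over 101 bp.

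The peak assigned to ceh-21 (WBGene00000444) lay 1041 bp upstream (X, 1853716 to 1853879, signal 133, rank 2375). It ranked 2454, 2830 and 2211 in the replicates. Its summit was 72 bp downstream of the start of T26C11.9, a gene lying between ceh-21 and ceh-39, so the nearest start was not that of ceh-21. No optimal summit lay in the window or body of ceh-41, where the strongest pooled-list summit had a signal of 10.7.

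The remaining ONECUT peak was weak and uneven between replicates. At ceh-48 (WBGene00015934), which is expressed throughout the nervous system, it lay 990 bp upstream (IV, 6810950 to 6811285, signal 60.3, rank 4955). Overlapping replicate peaks ranked 3336 in replicate 2 but 8509 and 6442 in replicates 1 and 3. Their summits were 145, 18 and 182 bp from the optimal summit in replicates 1, 2 and 3, so the replicates did not place this site alike. The replicate 3 peak that covered at least 50% of the site was weaker, with a signal of 3.27 and rank 17509. The GC content at the summit was 29.7%. No optimal summit was found at ceh-49.

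**Figure D1:**
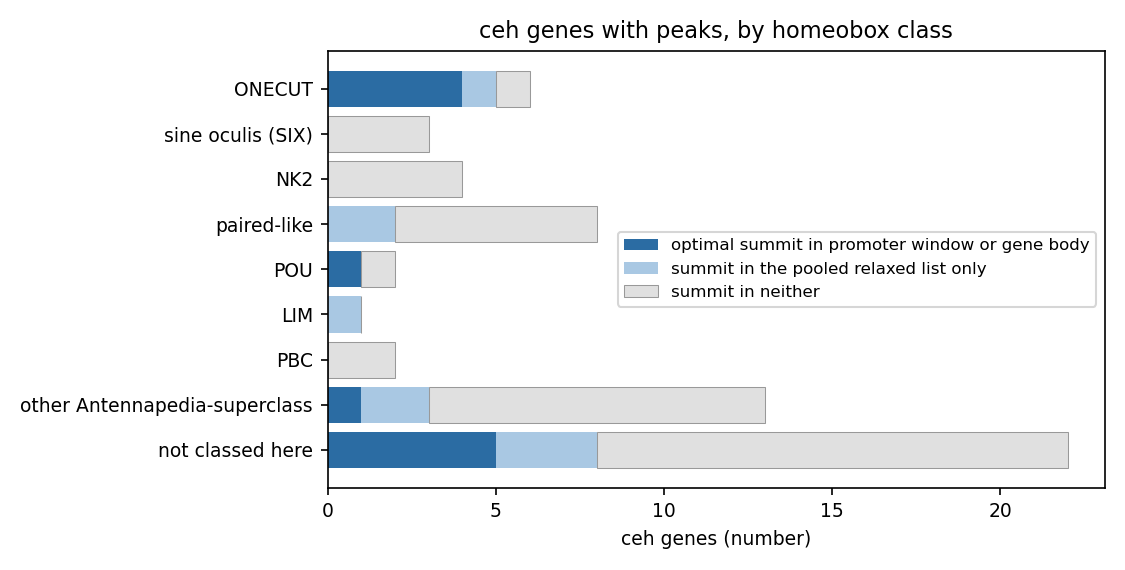
Number of ceh genes (x axis) in each homeobox class (y axis), split by whether an optimal summit lay in the promoter window or gene body, a summit came from the pooled relaxed list only, or neither. ONECUT genes had optimal summits at 4 of 6 members, and sine oculis, NK2 and PBC genes had none in either list.

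The paired-like, NK2, sine oculis, PBC and LIM genes had no optimal summit in the window or body. Among all genes 27.2% had one, and 46.3% had one in the pooled list, so counts of 0 in classes this small are no result about a class. None of the 8 paired-like genes had an optimal summit: ceh-8, ceh-10, ceh-17, ceh-36, ceh-37, ceh-45, ceh-53 and ceh-54. They include the Otx-type genes ceh-36 and ceh-37 of chemosensory neurons, the Chx10-type gene ceh-10 and the Phox2-type gene ceh-17. The NK2 genes ceh-22, ceh-24, ceh-27 and ceh-28 (0 of 4), the sine oculis genes ceh-32, ceh-33 and ceh-34 (0 of 3) and the PBC genes ceh-40 and ceh-60 (0 of 2) had no pooled-list summit either. The LIM gene ceh-14 had no optimal summit and a pooled-list signal of 13.8.

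The POU gene ceh-18 (WBGene00000441), which acts in gonadal sheath cells that signal to oocytes, held 3 optimal summits. All were within the gene, and all were of low rank. The strongest, in an intron 2930 bp downstream of the nearest start, had a signal of 82.9 and ranked 3917 (X, 3849604 to 3849939). It ranked 3437, 6160 and 2959 in replicates 1, 2 and 3.

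The second ceh-18 peak, 1765 bp downstream (signal 59.2, rank 5032), ranked 5072 and 4426 in replicates 1 and 3 but 14373 in replicate 2. The third, 1535 bp upstream of an internal start (signal 53.3, rank 5408), overlapped an exon of the noncoding RNA gene ZC64.5 and ranked 6376, 5446 and 8399. Thus a different replicate ranked lowest for each of these last 2 sites. The other POU gene, ceh-6, which acts in the excretory cell, had no optimal summit.

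Of the 13 other Antennapedia-superclass genes, 1 had optimal summits in the window or body, against 27.2% of all genes. With so few genes this is no result about the class. The gene was ceh-5 (WBGene00000430), which had 2. The stronger lay 1742 bp upstream with a signal of 212 and rank 1083, and ranked 1857, 503 and 1352 in the replicates. It fell in the 3′ UTR of eat-16, a regulator of G protein signalling, and in an intron of ocrl-1. The weaker lay 578 bp upstream (signal 53.9, rank 5365) and ranked 6293, 6101 and 17790. The genes of this class without an optimal summit were ceh-1, ceh-2, ceh-7, ceh-9, ceh-12, ceh-16, ceh-19, ceh-23, ceh-30, ceh-31, ceh-43 and ceh-51. Among these are ceh-12, the HB9-type gene of cholinergic motor neurons, ceh-16, the engrailed gene, and ceh-43, the Distal-less gene.

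The remaining 5 genes with peaks were not placed in a class here. At ceh-100 (WBGene00012584) both summits were shared with the promoter window of the lipase gene lips-15, which is transcribed the other way. The stronger, 802 bp upstream of ceh-100, lay 96 bp inside lips-15 (II, 12604386 to 12604587, signal 172, rank 1621). It ranked 1695, 1247 and 1173 in the replicates. The weaker lay 199 bp upstream of ceh-100 itself (signal 74.3, rank 4254), and ranked 4209, 4140 and 7182.

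At ceh-92 (WBGene00013431) the summit was 882 bp upstream (III, 11580624 to 11580812, signal 133, rank 2364) but only 240 bp from the start of Y66D12A.7, in the 3′ UTR of Y66D12A.6. It ranked 2117, 3005 and 1657. At ceh-93 (WBGene00019864) the stronger peak lay 108 bp upstream in intergenic sequence (X, 388846 to 389013, signal 124, rank 2575) and in no other gene's window. It ranked 3116, 1849 and 2738. The weaker ceh-93 peak lay in a coding exon 3344 bp downstream (signal 74.7, rank 4235) and ranked 4156, 4216 and 6400.

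The peak upstream of ceh-58 (WBGene00007417) lay 1420 bp away in intergenic sequence (II, 10370849 to 10371184, signal 94.7, rank 3466). It ranked 4089, 3085 and 4988. At ceh-88 (WBGene00008195) the only optimal summit was in the 3′ UTR, 2104 bp downstream of the start (IV, 17331245 to 17331370, signal 73.2, rank 4305), with the start of C49C3.6 nearer than its own. It ranked 3646, 5377 and 2616, so in the optimal list this gene was counted through its body alone. The strongest peaks of replicates 1 and 3 also held a summit in the ceh-88 promoter window, 95 bp upstream (signal 46.0, rank 3904) and 157 bp upstream (signal 21.9, rank 2492). Replicate 2 and the pooled list had none there.

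**Figure D2:**
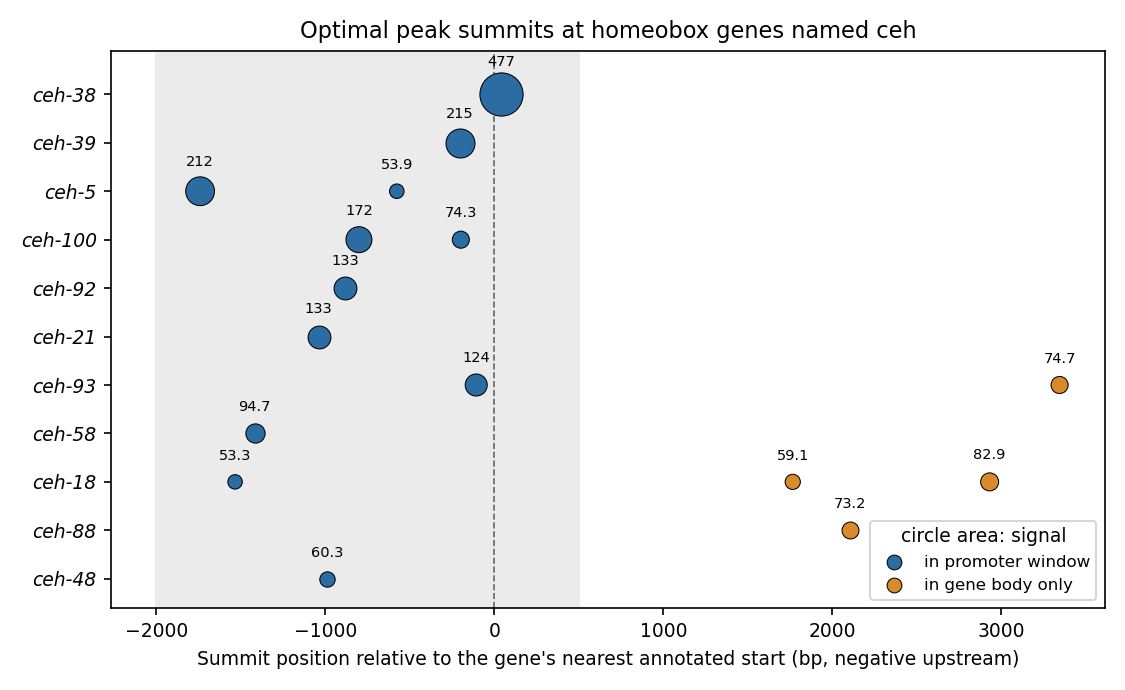
Distance of each optimal summit (x axis, bp, negative upstream) from the nearest annotated start of the ceh gene named on the y axis, with circle area and the number above it giving the signal value and grey marking the promoter window. Promoter-window summits (blue) lie upstream except at ceh-38, whose summit is 39 bp downstream, and 4 summits lie in gene bodies only (orange).

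Of 12 summits in promoter windows of ceh genes, 11 (91.7%) were upstream of the ceh start, against 92.4% of the 6026 pairs of a summit and a promoter window over all genes. The median position was -842 bp for ceh genes and -333 bp for all genes. For 9 of the 12 (75.0%) the ceh gene was the one with the nearest start, against 67.6% over all genes. Another protein-coding gene shared the summit in its window for 5 of the 12 (41.7%), against 56.5% over all genes. With 12 summits these shares are descriptions only. The farthest summit inside the window was that of ceh-5, at 1742 bp. The nearest summits upstream but outside it were at ceh-57, 3721 bp away and the same peak that counts for ceh-58, at ceh-8 (4258 bp), ceh-24 (4545 bp) and ceh-63 (4703 bp).

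Peaks at ceh genes were spread over the whole range of the optimal list. With the list divided by rank into parts of equal size, 3 of the 16 fell in the strongest part, 4 and 5 in those that followed, and 4 in the weakest. Their median signal was 88.8, against 108.5 for all optimal peaks. Taking the strongest peak per gene, the median was 133 over 11 ceh genes and 151 over 5430 protein-coding genes with a peak. The −log10 q-value was the same for every optimal peak and so did not separate them.

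Each replicate's list was taken down to its 5993 strongest peaks, the size of the optimal list. Of the 11 genes, 10 had a summit among the strongest peaks of all 3 replicates in the promoter window or body, and ceh-48 was the exception. This was 90.9%, against 82.1% of all genes with an optimal summit. In the promoter window alone it was 8 of 10, against 82.1% of all genes. These counts by gene allow different sites in different replicates, as at ceh-18. A replicate peak covered at least 50% of the optimal peak at 12, 13 and 10 of the 16 sites in replicates 1, 2 and 3 (11.7 ± 1.53, SD, n = 3). Any overlap was found at 13, 13 and 11. Site by site, all 3 replicates covered at least 50% of the peak at 7 of the 16, and any part of it at 9. Matching coverage of all optimal peaks is not given, so these counts by site are no result about the ceh peaks. At ceh-38 the replicate 3 peak was 160 bp wide inside an optimal peak of 396 bp, and so missed the 50% rule although it ranked 174. The optimal list was made from these replicates, so their coverage of it is a description.

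**Figure D3:**
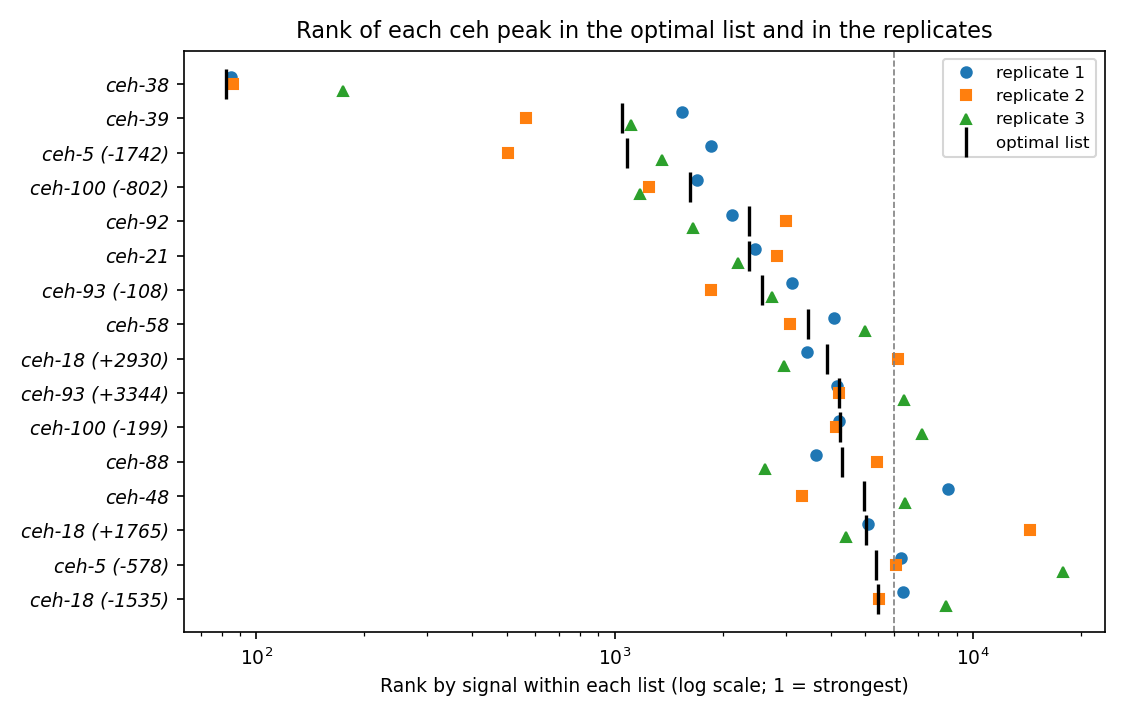
Rank by signal (x axis, log scale, 1 is the strongest) of the best overlapping peak in replicates 1, 2 and 3 and of the peak itself in the optimal list, for the 16 ceh sites (y axis; distance from the start in bp where a gene has several). The dashed line marks rank 5993. The 8 strongest sites stay left of it in all replicates, and weaker sites at ceh-5, ceh-18, ceh-48, ceh-93 and ceh-100 lie right of it in at least 1.

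Counted in each replicate's strongest peaks, ceh genes had a summit in the promoter window at 10, 10 and 13 of 61 genes in replicates 1, 2 and 3, a mean of 18.03% ± 2.84 (SD, n = 3). All protein-coding genes gave 25.7%, 26.1% and 25.8%. With gene bodies the ceh counts were 11, 12 and 15 (20.8% ± 3.41, SD, n = 3), against 27.5%, 27.8% and 27.6% of all genes. In these strongest peaks the ceh share was below that of all genes in each replicate, and was closest to it in replicate 3. In the whole replicate lists the promoter shares were 44.3%, 39.3% and 49.2%, against 47.1%, 48.3% and 48.7% of all genes. There replicate 3 was not below all genes by promoter, but with gene bodies it was, at 50.8% against 55.2%. The labels give sonication with a microtip for replicate 3 and a fragment size range for the others, and the part of that difference was not tested.

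**Figure D4:**
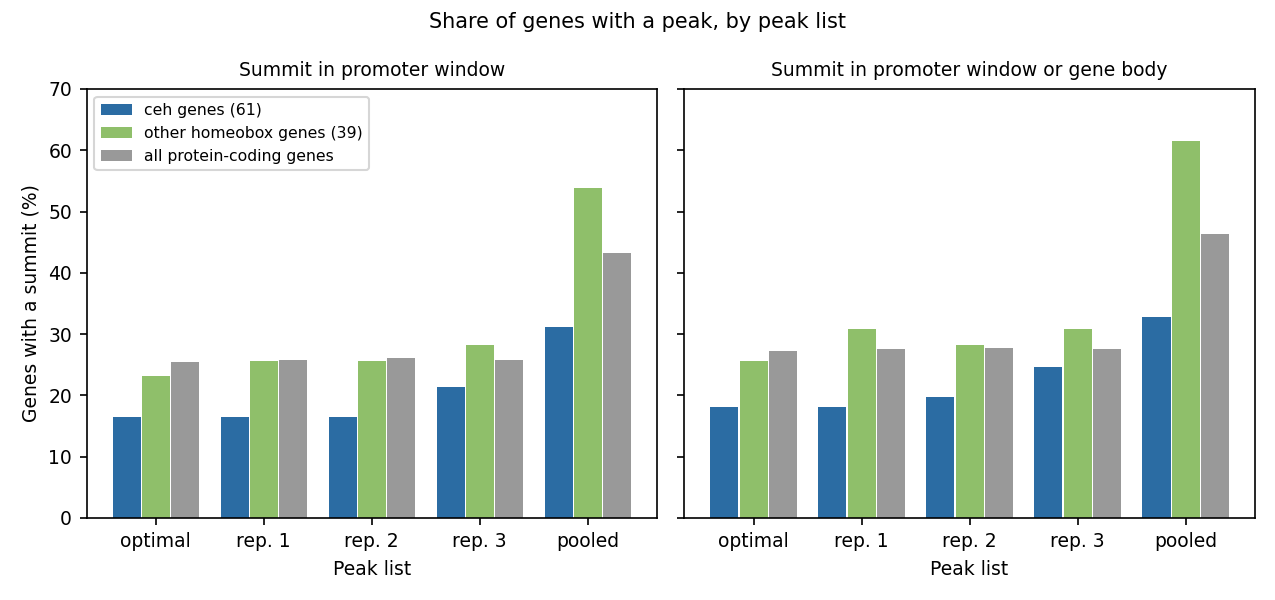
Percentage of genes with a summit (y axis) in the promoter window (left) or in the promoter window or gene body (right), for ceh genes, other homeobox genes and all protein-coding genes, in the optimal list, the strongest peaks of each replicate and the pooled relaxed list (x axis). The ceh bar is the lowest of the 3 in every list and panel. The other homeobox genes include ceh-13 and ceh-20, which both have optimal summits.

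In the pooled relaxed list, called on all replicates together, 19 ceh genes (31.1%) had a summit in the promoter window, against 43.2% of all genes. With gene bodies it was 20 (32.8%), against 46.3%. The 9 genes that had a pooled-list summit but no optimal one were ceh-8, ceh-9, ceh-14, ceh-41, ceh-45, ceh-51, ceh-62, ceh-89 and ceh-91. Their strongest pooled signals ran from 10.7 at ceh-41 to 44.2 at ceh-89, with a median of 20.3, all under the lowest signal of the optimal list, 45.8. The strongest optimal peak of each ceh gene had the same rank by signal in the pooled list, so this gap is no separate result.

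A further 22 genes had a summit in the whole relaxed list of at least 1 replicate but none in the pooled list. They were ceh-2, ceh-6, ceh-16, ceh-17, ceh-19, ceh-22, ceh-28, ceh-30, ceh-31, ceh-33, ceh-37, ceh-53, ceh-54, ceh-57, ceh-74, ceh-76, ceh-81, ceh-82, ceh-83, ceh-86, ceh-87 and ceh-90. The other 19 had no summit in any list: ceh-1, ceh-7, ceh-10, ceh-12, ceh-23, ceh-24, ceh-27, ceh-32, ceh-34, ceh-36, ceh-40, ceh-43, ceh-49, ceh-60, ceh-63, ceh-75, ceh-79, ceh-84 and ceh-99. Matching shares of all protein-coding genes are not given for these groups, so the counts are no result about the ceh genes. In the whole replicate lists, a mean of 48.6% of ceh genes had a summit in the window or body, against 53.3% of all genes. Sequencing depth is unknown, so absence from a list does not show absence of binding.

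Among genes without an optimal summit, 5 had a summit among the strongest peaks of a replicate. At ceh-74 a site in an intron of cest-2.3 ranked 3195 in replicate 1 (signal 56.2, 233 bp upstream) and 3728 in replicate 3 (signal 15.6, 261 bp upstream). At ceh-8, a gene of the RIA interneuron, a site in the 3′ UTR ranked 5285 in replicate 2 and 4274 in replicate 3. Sites at ceh-6, ceh-9 and ceh-91 ranked 5451, 5177 and 4958, in replicate 3 alone. Replicate 3 contributed to all 5. The matching share of all genes is not given here, so this is no result about the ceh genes.

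The half-site AGGTCA, bound by many nuclear receptors, was not found on either strand within 50 bp of any of the 16 summits, and 1.37% of all optimal peaks (82 of 5993) held it there. TAATTA, a core bound by many homeodomains, was likewise found at 0 of 16, against 1.62% of all optimal peaks. Both shares are low in the whole list, so a count of 0 among 16 peaks is no result about the ceh genes. The absence of these letters says nothing about which factor is present.

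The hexamers capitalised in the sequences were taken from the 5977 optimal peaks away from ceh genes. They are the 5 with the highest ratio of summit to flank, where flanks are windows of the same size 300 bp to either side. Their ratios ran from 7.39 for GACGCA to 9.72 for GCGCGC. At least 1 of them lay within 50 bp of the summit at 8 of the 16 ceh peaks, against 33.1% of the other optimal peaks. None of the 16 had one in either flank, where 4.99% and 5.17% of the other optimal peaks had one, so the 0 is no result about the ceh genes. GACGCA was at 5 of the 16, GAGCGC at 3, GCGCGC at 1, AGCGCG at 1 and ACGCGC at 0. These hexamers overlap each other in letters, as in the run upstream of ceh-39.

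The hexamers were found more often at the stronger ceh peaks by count. Among the 7 ceh peaks in the stronger part of the optimal list (rank 2996 or better), 6 held one, at ceh-39, ceh-5, ceh-100, ceh-92, ceh-21 and ceh-93. The exception was ceh-38, the strongest. Among the 9 weaker peaks, 2 held one, at ceh-100 and ceh-88. In the other optimal peaks the shares were 42.9% in the stronger part and 23.3% in the weaker. The 3 ceh-18 sites and the ceh-48 site held none.

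By median, the ceh genes with a peak were longer and nearer to their upstream neighbour than those without. The 11 with an optimal summit had a median length of 3884 bp and a median gap of 705 bp (0 to 15735) to the next protein-coding gene upstream. The 50 without had a median length of 2544 bp and a median gap of 2040 bp (0 to 12889). The ceh genes as a whole were longer than all protein-coding genes, with medians of 2818 and 2027 bp. The part of length and spacing in the counts was not tested.

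By chromosome, no ceh gene of the 12 on V had a summit in its promoter window, where 15.7% of all genes had one. On X the count was 4 of 18, against 22.9% of all genes there, on II 3 of 13, against 23.95%, and on IV 1 of 4, against 24.2%. On III it was 1 of 6, against 39.2%, and on the chromosome that holds ceh-5 it was 1 of 8, against 35.8%. Chromosome V, with the lowest share for all genes, held 12 of the 61 ceh genes and 4994 of the 19973 protein-coding genes. The part of chromosome in the counts was not tested.

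For comparison, 39 other homeobox genes were counted in the same way. They include ceh-13 and ceh-20, which carry the ceh name and each had an optimal summit in the promoter window. Counting both of them here raises the share of this list, and the share without them was not computed. Of the 39 genes, 9 (23.1%) had an optimal summit in the promoter window and 10 (25.6%) in the window or body. The shares of the ceh genes were 16.4% and 18.03%. In the replicates' strongest peaks the promoter share was 26.5% ± 1.48 (SD, n = 3). The 6 of highest signal were unc-30 (222), lin-39 (219), unc-62 (219), mec-3 (147), ceh-13 (141) and mab-5 (139). The peak at unc-30, which specifies D-type motor neurons, lay 25 bp upstream and ranked 978 in the optimal list and 810, 1042 and 1001 in replicates 1, 2 and 3. At ceh-38 the signal was higher than at any of these 39 genes. At lin-39, a Hox gene, 4 optimal summits lay in the promoter window, more than at any ceh gene.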

How the data were processed

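UNC-55 ChIP-seq was measured in 3 biological replicates, numbered per the labels. The authors deposited narrowPeak lists in ce11: a relaxed list per replicate (30000, 30000 and 25262 peaks), a pooled relaxed list (30000) and an optimal IDR list. The signal per peak is the authors' value as deposited, used to describe and rank peaks within a list, and the −log10 q-value is also as deposited. Neither labels nor notes name an aligner or a peak caller (not given in the sources used here). No read counts accompany the lists, so depth is unknown.

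Summits (start plus offset, written 1-based) were placed against Ensembl release 115 (WBcel235), whose chromosomes contain all peaks. Python 3.11.15, pandas 2.3.3 and numpy 2.4.6 were used. The assignment code was checked on simulated summits planted inside promoter windows. This shows only that the code finds such summits, and it did not cover gene bodies, window edges or shared windows. With 1 group and no control sample, no test was made: counts stand beside those of all protein-coding genes. Every ceh gene with an optimal summit is named with values, others by their lists, and up to 6 other homeobox genes by signal. Sequence is shown for up to 8 peaks. Members, classes and lists were chosen with earlier results of these data known. Homeobox classes come from general knowledge and cover only genes of known class. The ce10 lists were not used.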

Additional observations from a re-analysis of the deposited data

How the results depend on the processing

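The number of ceh genes with an optimal summit in the promoter window was 7 with a window of 1000 bp upstream to 200 bp downstream, 14 with one of 5000 bp upstream, 8 when a summit counted only for the nearest start, and 6 to 7 when a replicate was left out. The shares of all genes under the same settings were 19.85%, 35.8%, 17.8% and 18.8% to 20.4%. With gene bodies the count was 8 when any replicate was left out, with 8 to 10 summits, against 20.1% to 21.8% of all genes. Leaving out a replicate meant the 50% coverage rule on the remaining replicates, which dropped ceh-38 without replicate 1 or 2, despite its high ranks. The 2996 strongest optimal peaks gave 7 genes with 7 summits, by promoter and with bodies alike, against 17.5% and 18.5% of all genes. The pooled relaxed list gave 19 by promoter and 20 with bodies, against 43.2% and 46.3% of all genes, and 68 summits. The median signal of the strongest peak per gene was 124.3 with the narrow window, 133.4 with the wide window or with any base of the peak counted, 109.5 by nearest start, 172.2 in the 2996 strongest peaks, 66.75 in the pooled list, and 128.6 to 133.2 without a replicate. Whole replicate lists gave means of 27 genes by promoter (44.3% of ceh genes, against 48.1% of all genes) and 29.7 with bodies (48.6%, against 53.3%), a smaller gap in proportion than in the strongest peaks. The 2996 strongest peaks per replicate gave 6.67 (10.9%, against 17.3%) and 7 (11.5%, against 18.3%). AGGTCA was within 100 bp of 1 of the 16 summits, and any of the 5 hexamers, a choice made after seeing the data, within 100 bp of 9. No paired analysis was possible because there was only 1 group.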

Other observations

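At ceh-74, replicates 1 and 3 each held a peak among their strongest, and no peak of the pooled relaxed list overlapped either. The sites at ceh-8 and ceh-6 in the replicates' strongest peaks also had no overlapping pooled peak, whereas those at ceh-9 and ceh-91 did. Over all genes, 193 of the 5993 strongest peaks of replicate 1 (3.22%), 278 of replicate 2 (4.64%) and 388 of replicate 3 (6.47%) overlapped no peak of the pooled list. The reason was not tested.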
